A study of Mus musculus with 5 samples.

Results

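Protein phosphatases remove the phosphate groups that kinases attach, and their genes were read here on RNA from mouse peritoneal macrophages. The genes described are those whose symbol begins with Ppp, Ppm1, Ptpn, Ptpr or Ptp4a. These prefixes cover catalytic and regulatory subunits of the serine-threonine phosphatases, the PPM phosphatases, non-receptor and receptor tyrosine phosphatases and the PRL phosphatases. They also take in Ptprcap, which encodes a protein bound to the receptor phosphatase CD45 and is not itself a phosphatase. The rule found 93 probe sets for 70 genes of 8251 genes named on the array, and each gene was represented by its probe set with the highest mean signal over the 5 arrays.

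The array was the Affymetrix MG-U74Av2, and the series examined ethanol given by mouth together with poly IC, a synthetic mimic of viral double-stranded RNA. In the first group, 2 pools of mice received poly IC (0.1 mg per mouse) plus ethanol (6 g per kg). In the second, 2 pools received poly IC without ethanol, with the same dose stated for replicate 2 and no dose stated for replicate 1. All pooled mice were female F1 animals of a C57Bl/6 by C3H cross, 12 weeks old. The remaining array came from untreated (naive) animals whose sex, age and strain the label does not give, and no group received ethanol alone. The sources used here give no number of mice per pool, no route of poly IC, no time to harvest and no method of purifying the cells. Because each pool is 1 array, tests measured the spread between pools, and the single naive array was assumed to vary like the treated ones. Signals are linear intensities that the submitters scaled to a target of 2500. Each difference is one of log2(signal + 250), so that of a dim gene is compressed, and a call means an adjusted p under 0.05 over 5443 tested genes.

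Of 13 macrophage marker genes on the array, none lay below the brightest unspiked control probe set on any array. They summed to 402191 and 366909 with poly IC plus ethanol, 397186 and 444987 with poly IC and 308932 on the naive array. Cd14 weighs heavily in these sums, with 120787 and 122303 with poly IC plus ethanol, 126412 and 147435 with poly IC and 47180 naive. Gata6 went the other way, with 1169 and 1531 with poly IC against 7218 naive. Of the 13, 3 were called higher and 3 lower with poly IC than naive. Between ethanol and poly IC, 1 was called lower and none higher. B cell markers were present as well. Their summed signal was 245934 and 262417 with poly IC plus ethanol, 198206 and 180020 with poly IC and 398168 on the naive array. Neutrophil markers summed to 46722 and 39639 with poly IC plus ethanol, against 139002 and 101466 with poly IC and 24297 on the naive array. T and NK cell markers summed to 23144 and 25024 with poly IC plus ethanol, against 17795 and 13027 with poly IC and 29678 on the naive array. By these sums, B, T and NK cell markers were highest on the naive array and lowest with poly IC, and neutrophil markers ran the other way. Of the 14 T and NK cell genes on the array, however, 8 and 9 lay below the brightest unspiked control with poly IC. Of the 4 tested, 3 stood higher and 1 lower with poly IC than naive (median 0.37). For ethanol against poly IC, 1 of these stood higher and 3 lower (median -0.39). Erythroid markers, among them haemoglobin genes, stood at 1640% and 888% of the naive sum with poly IC plus ethanol and at 1533% and 2846% with poly IC. That naive sum was only 1199 over 4 genes, 2 of them below the brightest unspiked control. Mast cell markers stood at 143% and 129% of the naive sum with poly IC plus ethanol and at 277% and 161% with poly IC. Of 5 tested mast cell markers, however, only 1 was called against naive with poly IC (higher), and their median difference was 0.03. In such mixed samples, fewer cells of a type and less RNA per cell cannot be told apart.

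**Figure D1:**
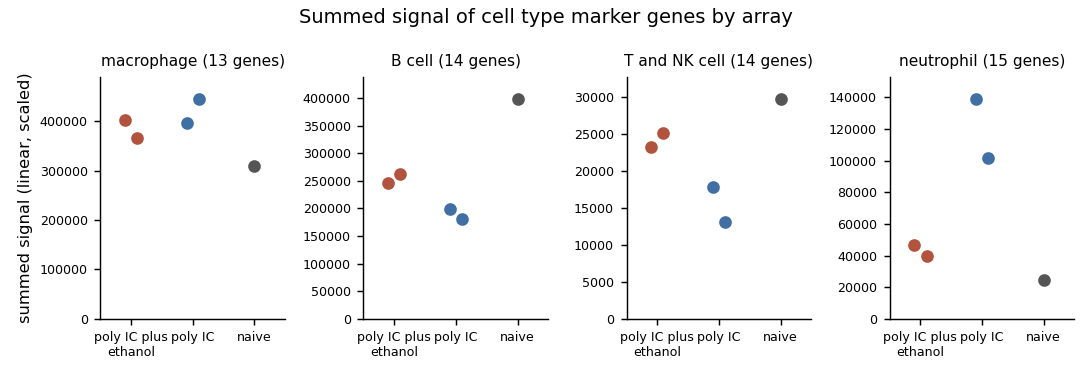
Summed linear signal (scaled intensity, vertical axes from 0) of marker genes of 4 cell types, with 1 point per array in the poly IC plus ethanol, poly IC and naive groups. B cell sums are 245934 and 262417 with poly IC plus ethanol, below the naive 398168 and above the 198206 and 180020 with poly IC.

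Serine-threonine phosphatases of the PPP family work as assemblies, in which a small set of catalytic subunits is aimed at its substrates by many regulatory subunits. Tyrosine phosphatases instead carry their targeting domains in the same protein, and several of them set the threshold of immune signalling. PTP1B and TC-PTP dephosphorylate the JAK kinases that relay interferon signals, SHP-1 binds inhibitory receptors, and CD45 and CD148 remove the inhibitory phosphate of Src family kinases. In the response to double-stranded RNA, the kinase PKR phosphorylates the translation factor eIF2alpha, and PP1 with a subunit of the Ppp1r15 pair reverses it.

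Promoter sequence is shown for 2 sets of genes, those that fell with poly IC and stood higher with ethanol, and those that rose with poly IC. RefSeq (build GRCm38.p6) gave a promoter window for 55 of the 70 genes. These include 5 of the 6 genes that were higher with ethanol than with poly IC alone, and 2 of the 4 that poly IC raised. Each line below holds the 250 bases before the most upstream annotated start, 5′ to 3′ on the gene's strand. Capitals mark matches, on either strand, to the GC box GGGCGG or to the core GAGGAA that the macrophage and B cell factor PU.1 can bind.
Ppp1r21, chr17:88529874-88530123, plus strand: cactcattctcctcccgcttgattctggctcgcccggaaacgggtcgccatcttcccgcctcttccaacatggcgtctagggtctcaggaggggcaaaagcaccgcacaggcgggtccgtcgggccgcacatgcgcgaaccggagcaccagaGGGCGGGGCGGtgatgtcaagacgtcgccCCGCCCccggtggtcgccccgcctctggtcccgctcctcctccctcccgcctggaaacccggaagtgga
Ptpro, chr6:137252049-137252298, plus strand: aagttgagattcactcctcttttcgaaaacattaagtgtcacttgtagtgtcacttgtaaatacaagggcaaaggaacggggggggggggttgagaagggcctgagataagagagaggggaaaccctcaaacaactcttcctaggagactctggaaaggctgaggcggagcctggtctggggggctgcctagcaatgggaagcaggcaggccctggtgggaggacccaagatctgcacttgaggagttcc
Ppm1m, chr9:106199234-106199483, minus strand: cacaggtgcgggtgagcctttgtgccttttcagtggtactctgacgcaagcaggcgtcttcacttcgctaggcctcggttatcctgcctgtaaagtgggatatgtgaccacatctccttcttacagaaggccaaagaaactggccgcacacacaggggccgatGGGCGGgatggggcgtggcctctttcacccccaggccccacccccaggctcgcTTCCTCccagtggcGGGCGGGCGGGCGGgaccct
Ptpn22, chr3:103859545-103859794, plus strand: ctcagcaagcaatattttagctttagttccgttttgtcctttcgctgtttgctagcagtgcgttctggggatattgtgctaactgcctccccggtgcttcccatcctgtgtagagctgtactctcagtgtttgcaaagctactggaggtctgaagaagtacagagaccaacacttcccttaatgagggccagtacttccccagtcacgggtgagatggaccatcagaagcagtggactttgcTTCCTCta
Ppp3r1, chr11:17159048-17159297, plus strand: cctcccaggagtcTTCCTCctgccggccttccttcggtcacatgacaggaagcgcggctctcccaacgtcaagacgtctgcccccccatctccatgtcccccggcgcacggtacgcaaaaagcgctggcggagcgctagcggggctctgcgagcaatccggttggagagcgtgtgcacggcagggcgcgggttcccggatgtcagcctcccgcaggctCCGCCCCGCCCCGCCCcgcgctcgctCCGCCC
Ptpn1, chr2:167932077-167932326, plus strand: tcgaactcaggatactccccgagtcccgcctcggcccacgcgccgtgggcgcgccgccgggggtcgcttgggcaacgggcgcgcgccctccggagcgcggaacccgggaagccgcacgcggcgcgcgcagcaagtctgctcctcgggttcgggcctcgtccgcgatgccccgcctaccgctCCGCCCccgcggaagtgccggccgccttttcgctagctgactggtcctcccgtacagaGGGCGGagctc
Ptprj, chr2:90580596-90580845, minus strand: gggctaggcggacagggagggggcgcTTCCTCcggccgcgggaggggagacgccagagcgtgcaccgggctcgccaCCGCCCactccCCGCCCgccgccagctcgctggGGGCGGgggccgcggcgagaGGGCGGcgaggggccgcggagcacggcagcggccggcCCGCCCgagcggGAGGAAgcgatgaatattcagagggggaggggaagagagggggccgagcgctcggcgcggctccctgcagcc

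The windows differ in composition. GC content is 49.2% for Ptpn22 and 53.6% for Ptpro, with 5 and 3 CpG dinucleotides, but 68.4% for Ppp1r21 and 70.8% for Ppp3r1, with 26 and 29. Those of Ptpn1 and Ptprj are at 75.2% and 79.2%, against a median of 52% over 27025 RefSeq windows. Among the 5 genes higher with ethanol, the PU.1 core matched in 3 (Ppm1m, Ptpn22 and Ppp3r1), against 23.1% of all windows. The GC box matched in 3 of these 5 (Ppp1r21, Ppm1m and Ppp3r1), against 33% of all windows. None of these 5 windows, nor those of Ptpn1 and Ptprj, held the STAT motif GAS (TTCNNNGAA, in 7.14% of all windows), the core of the interferon-stimulated response element (3.05%) or the NF-kB consensus (3.74%). The AP-1 motif TGANTCA (6.85%), the CRE TGACGTCA (1.6%) and the E-box CACGTG (6.04%) were also not matched in them. The shorter CRE core TGACG, which lies within the CRE, matched in 2 of the 5 (17.8% of all windows), and the ETS motif CCGGAA in 1 (12.3%). A match or its lack describes these letters in this window alone.

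Poly IC plus ethanol against poly IC asks what ethanol changed in mice that also received poly IC. Of the 50 phosphatase genes that passed the filter on dim probe sets, 6 were higher with ethanol and none was lower, and the 6 are Ppp1r21, Ptpro, Ppm1m, Ptpn22, Ptp4a3 and Ppp3r1. Over all tested genes 11.0% were called in this comparison, 6.03% higher and 4.98% lower. With median-centred arrays the calls over all genes were 206 higher and 285 lower, where the fit reported here had 328 and 271, and those among the phosphatase genes were 5 higher and none lower. The 12% called among the phosphatase genes is near that background, so the count is not particular to them. At an unadjusted level, 1436 of all 5443 genes had a p under 0.05. The median difference was 0.19 for the phosphatase genes and 0.07 for all genes tested. The ethanol pools all lay above the poly IC pools in 23 of the 50 phosphatase genes, all below in 7 and overlapped in 20. Separated pools were thus common among these genes. The matching share over all genes was not counted, so separation alone is not read as a difference.

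Ppp1r21, numbered among the PP1 regulatory subunits and known as part of an early endosome complex, had signals of 14380 and 15154 with poly IC plus ethanol, 5732 and 5108 with poly IC and 16792 on the naive array. The ethanol pools lay well above the poly IC pools and just below the naive array. The mean was 14767 ± 547 with ethanol and 5420 ± 441 with poly IC (SD, n = 2 each). The log2 difference was 1.41 (SE 0.14, adjusted p = 0.000485), which is 2.65-fold. The call held in all 14 alternatives computed, between 1.33 and 1.49.

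Ptpro, a receptor tyrosine phosphatase known from podocytes and also made by macrophages, had 4538 and 4082 with poly IC plus ethanol, against 1509 and 2024 with poly IC and 6268 on the naive array. The groups did not overlap, and the ethanol pools reached 68.8% of the naive signal in the mean, the poly IC pools 28.2%. The difference between ethanol and poly IC was 1.19 (SE 0.18, adjusted p = 0.00444). Ptpn22, a phosphatase that dampens antigen receptor signalling by acting on Src family kinases, had 18477 and 18263 with poly IC plus ethanol, 10478 and 9551 with poly IC and 24255 on the naive array. The ethanol pools were nearly alike and again stood between the other groups. The difference was 0.86 (SE 0.13, adjusted p = 0.00351), and its call was lost only with eBayes without the trend (adjusted p = 0.054).

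Ppm1m, a phosphatase of the PP2C type, had 2080 and 3122 with poly IC plus ethanol, against 1171 and 1202 with poly IC and 4713 on the naive array. The ethanol pools differed from each other more than the poly IC pools did, yet both lay above them. The difference was 0.96 (SE 0.21, adjusted p = 0.0194). Ppp3r1, the calcium-binding B subunit of calcineurin, had 7277 and 7411 with poly IC plus ethanol, 4285 and 4304 with poly IC and 8588 on the naive array. Pools of the same treatment were nearly alike in this gene. The difference was 0.74 (SE 0.15, adjusted p = 0.0119). Ptp4a3, a membrane-anchored PRL phosphatase, had 3551 and 3604 with poly IC plus ethanol, against 2377 and 1737 with poly IC and 9119 on the naive array. Its ethanol signals stayed far below the naive one. The difference was 0.74 (SE 0.18, adjusted p = 0.03).

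With poly IC replicate 1 or with poly IC replicate 2 left out, 3 of the 6 calls held, those of Ppp1r21, Ptpn22 and Ptpro. Without the first, adjusted p was 0.103 for Ppm1m, 0.0921 for Ppp3r1 and 0.0556 for Ptp4a3. Without the second it was 0.115, 0.113 and 0.283 in the same order. Ptp4a3 also lost its call with no filter, with eBayes without the trend and with median-centred arrays, Ppm1m with no filter and without the trend, and Ppp3r1 without the trend. The count of calls was 4 with no filter, 2 without the trend (Ppp1r21 and Ptpro) and 5 with median-centred arrays. B cell markers stood higher with ethanol than with poly IC in the same arrays (4 of 12 tested called higher, none lower, median 0.51) and neutrophil markers lower (6 of 12 called lower, none higher, median -0.95). The B cell markers called higher were Cd79b (1.80, SE 0.16), Blk (1.33, SE 0.14), Spib (1.32, SE 0.20) and Cd79a (0.71, SE 0.14), beside a difference of 1.41 for Ppp1r21. Of 4 tested T and NK cell markers, Cd2 was called higher (1.04, SE 0.17, adjusted p = 0.00563). The other 3 had negative differences that were not called, and the median of the 4 was -0.39. The part of these cell types in the 6 differences was not tested.

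**Figure D2:**
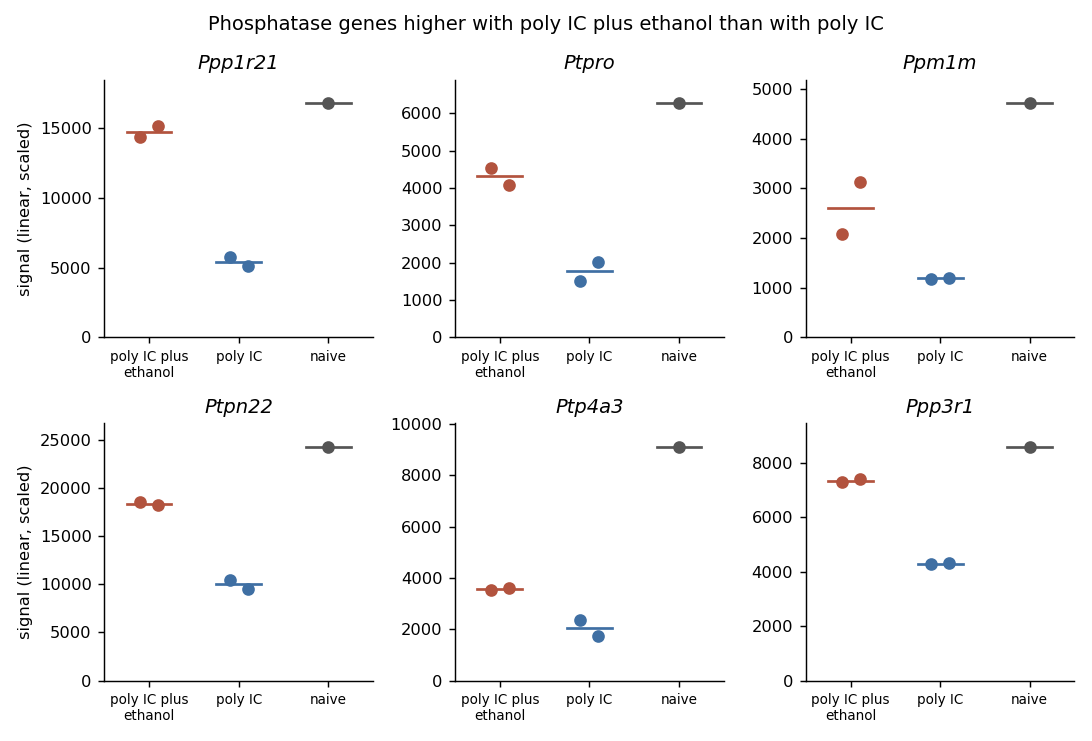
Linear signal (scaled intensity, vertical axes from 0) of the 6 genes called higher with ethanol, with 1 point per array and a line at the group mean for poly IC plus ethanol, poly IC and naive. In each panel the ethanol points lie above the poly IC points and below the naive point, as for Ppp1r21 with 14380 and 15154 against 5732 and 5108.

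None of the 10 catalytic subunits was called between ethanol and poly IC, and their differences ran between -0.34 and 0.44. Ppp1cb, a PP1 catalytic subunit, had 6307 and 5628 with poly IC plus ethanol, against 6300 and 5825 with poly IC and 5700 on the naive array. The pools of both treatments overlapped, and the 95% interval of the difference ran between -0.36 and 0.32. For the other PP1 subunit tested, Ppp1cc, the interval was -0.34 to 0.37. The PP2A catalytic subunits Ppp2ca and Ppp2cb gave differences of -0.07 (interval -0.54 to 0.39) and -0.11 (-0.55 to 0.32). These intervals leave room for modest changes either way, so equal levels are not shown.

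The Ppp3r1 product binds the calcineurin catalytic subunits, which Ppp3ca, Ppp3cb and Ppp3cc encode. Ppp3ca had 8823 and 8753 with poly IC plus ethanol, against 6765 and 6274 with poly IC and 9487 on the naive array. Its ethanol pools did not overlap the poly IC pools, but the difference of 0.42 (SE 0.14) missed the threshold (adjusted p = 0.0911). Ppp3cc gave 1936 and 1495 with ethanol, against 1201 and 1177 with poly IC and 1982 on the naive array (0.44, SE 0.21, adjusted p = 0.215). Ppp3cb had 1043 and 1408 with ethanol, overlapping the 1060 and 966 with poly IC, and 1643 on the naive array (0.21, SE 0.23 for ethanol against poly IC). Of 6 tested calcineurin-NFAT partners, which include the NFAT factors and the feedback inhibitor gene Rcan1, none was called in this comparison (median 0.23).

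PP4 genes leaned the other way without a call. Ppp4r2, a regulatory subunit of PP4, had 943 and 952 with poly IC plus ethanol, against 1533 and 1572 with poly IC and 836 on the naive array (-0.59, SE 0.23, adjusted p = 0.129). The pools were tight and did not overlap, and the gene is dim enough for the added offset to compress its difference. Its catalytic partner Ppp4c had 11409 and 13083 with ethanol, against 13489 and 17899 with poly IC and 12904 on the naive array (-0.34, SE 0.16, adjusted p = 0.211). Ppp6c had 3320 and 3775 with ethanol, 2697 and 3042 with poly IC and 3151 on the naive array. Ppp5c had 704 and 1059 with ethanol, 649 and 706 with poly IC and 1399 on the naive array. Neither was called (adjusted p = 0.33 and 0.6).

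Ptprc, which encodes the pan-leukocyte phosphatase CD45, had 25323 and 14238 with poly IC plus ethanol, against 30546 and 27067 with poly IC and 18970 on the naive array. The ethanol pools differed widely, and their mean was 19781 ± 7838 (SD, n = 2). The difference of -0.59 (SE 0.22) was not called (adjusted p = 0.12), but it was -1.0 without ethanol replicate 1 (adjusted p = 1.22e-06), with the remaining pool assumed to vary like the others. Another probe set for the gene gave 17127 and 13161 with ethanol, 18543 and 19195 with poly IC and 12556 on the naive array, a difference of -0.32.

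Poly IC against naive moved more of the phosphatase genes. Of 50 tested, 4 rose and 14 fell. Over all genes 32.8% were called, 12.1% higher and 20.8% lower, and the 36% of phosphatase genes called is near that level. The median difference was -0.21 for the phosphatase genes and -0.16 for all genes. With median-centred arrays the phosphatase calls were 5 higher and 10 lower. Over all genes the balance then turned, with 842 higher and 742 lower against 656 and 1132 in the fit reported here, and the median of all genes was 0.03. By class, of 8 tested non-receptor tyrosine phosphatases 2 rose and 4 fell, of 10 receptor types 1 rose and 2 fell, and both PRL phosphatases fell. Of 10 catalytic subunits of the PPP family only Ppp3ca was called, as were 2 of 7 PP1 subunits (Ppp1r15b and Ppp1r21) and 1 of 5 PP2A subunits (Ppp2r5c).

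**Figure D3:**
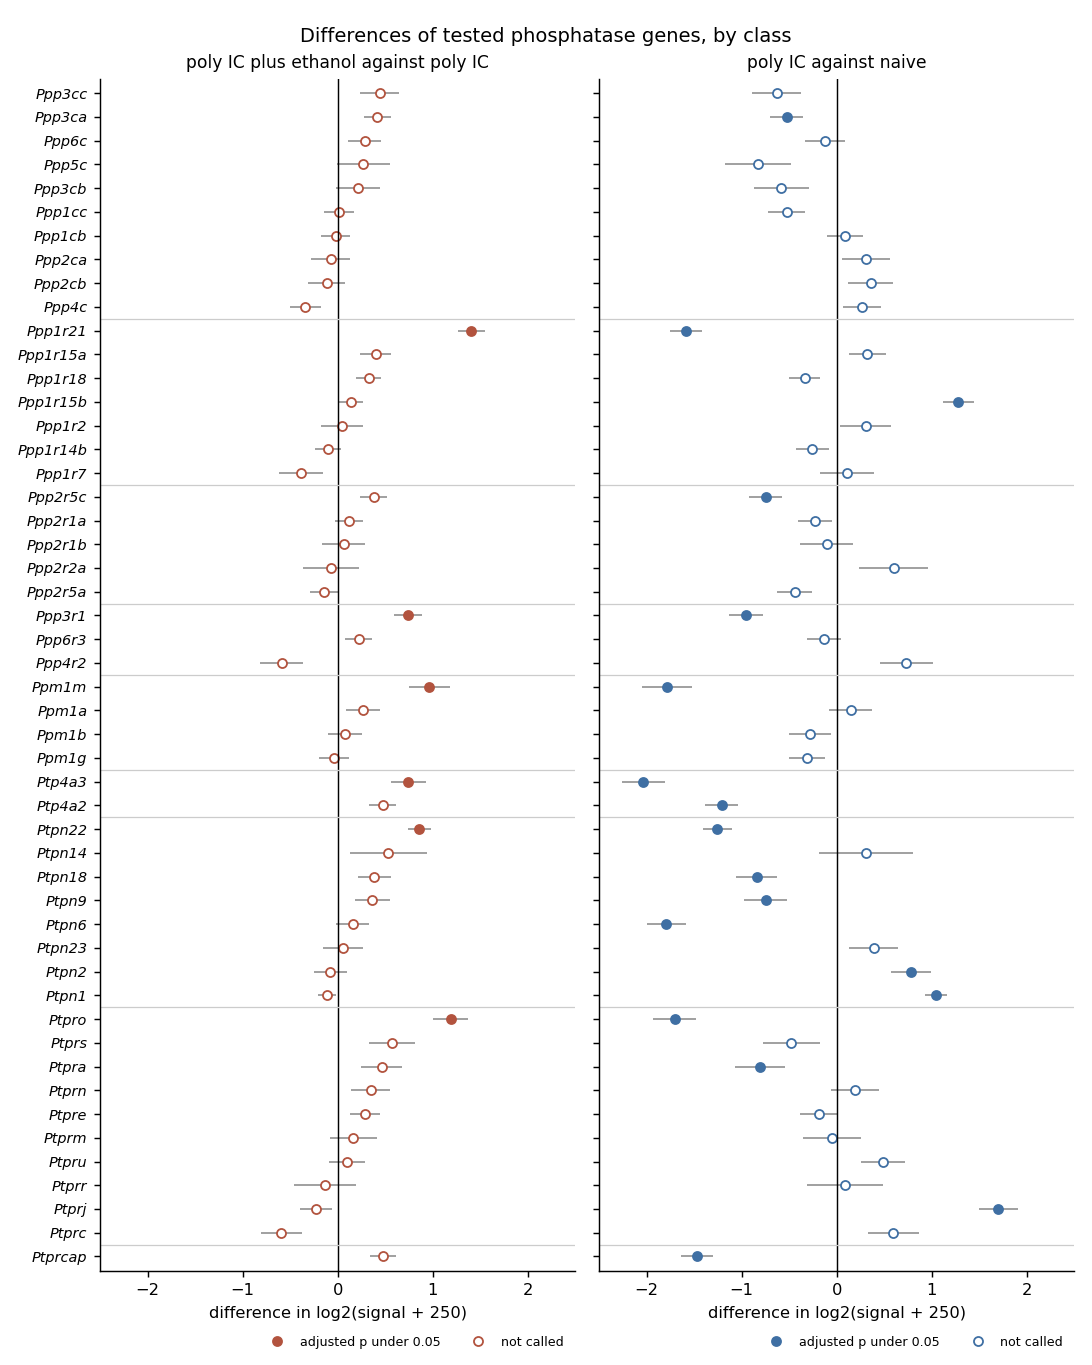
Differences in log2(signal + 250) of the 50 tested phosphatase genes, with poly IC plus ethanol against poly IC on the left and poly IC against naive on the right. Points are estimates, bars are SE, filled points have adjusted p under 0.05, and grey lines separate the classes from the PPP catalytic subunits at the top to Ptprcap at the bottom. On the left 6 points are filled, all above 0, and on the right 18 are filled, 14 of them below 0. The comparisons share the poly IC arrays.

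The genes that rose include regulators of JAK-STAT signalling and of translation. Ptpn1 encodes PTP1B, an endoplasmic reticulum phosphatase that acts on JAK2 and TYK2. It had 60957 and 67016 with poly IC plus ethanol, 68848 and 69567 with poly IC and 33380 on the naive array. Pools of both treatments lay far above the naive signal. The rise with poly IC was 1.05 (SE 0.12, adjusted p = 0.0001), and the difference between ethanol and poly IC was -0.11 (95% interval -0.33 to 0.10). Ptpn2 encodes TC-PTP, which dephosphorylates JAK kinases. It had 3197 and 3690 with poly IC plus ethanol, 3857 and 3431 with poly IC and 2008 on the naive array. Pools of both treatments overlapped, with a rise of 0.78 (SE 0.21, adjusted p = 0.0168) for poly IC over naive. Adjusted p was 0.102 and 0.054 when poly IC replicate 1 or replicate 2 was left out, which ended that call.

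Ptprj, which encodes the receptor phosphatase CD148, had 3129 and 3413 with poly IC plus ethanol, 3953 and 3793 with poly IC and 1018 on the naive array. It rose by 1.70 (SE 0.21, adjusted p = 0.000183) with poly IC. A further probe set that passed the filter gave 1844 and 2707 with poly IC against 681 naive, a difference of 1.42 in the same direction. Ppp1r15b encodes the constitutive partner that brings PP1 to eIF2alpha. It had 29243 and 24132 with poly IC plus ethanol, 23598 and 24722 with poly IC and 9803 on the naive array. The rise with poly IC was 1.28 (SE 0.16, adjusted p = 0.000228). Ppp1r15a, the stress-induced partner in the same task (GADD34), had 7772 and 6326 with poly IC plus ethanol, 5194 and 5317 with poly IC and 4155 on the naive array. Its difference was 0.32 (SE 0.20, adjusted p = 0.244) for poly IC against naive and 0.40 (SE 0.16, adjusted p = 0.148) for ethanol against poly IC. Neither was called.

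Across these rises no difference between ethanol and poly IC was called. On the probe sets that represent Ptpn1 and Ptprj, both ethanol pools lay below both poly IC pools. The further Ptprj probe set that passed the filter overlapped, at 2157 and 1293 with ethanol against 1844 and 2707 with poly IC. Another Ptprj probe set, which failed the filter, went the other way, at 750 and 660.5 against 338.1 and 236.2. Its poly IC signals lay below the brightest unspiked control. The difference between ethanol and poly IC was -0.23 (95% interval -0.60 to 0.15) for Ptprj, -0.08 (-0.46 to 0.31) for Ptpn2 and 0.14 (-0.16 to 0.43) for Ppp1r15b. Neutrophil markers rose with poly IC in the same arrays (8 of 12 tested higher, 1 lower, median 1.99). Both erythroid markers tested, Hba-a1 and Hbb-b2, rose too (median 3.76), as did Hdc among 5 mast cell markers tested. Whether cell composition contributes to these rises was not tested.

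**Figure D4:**
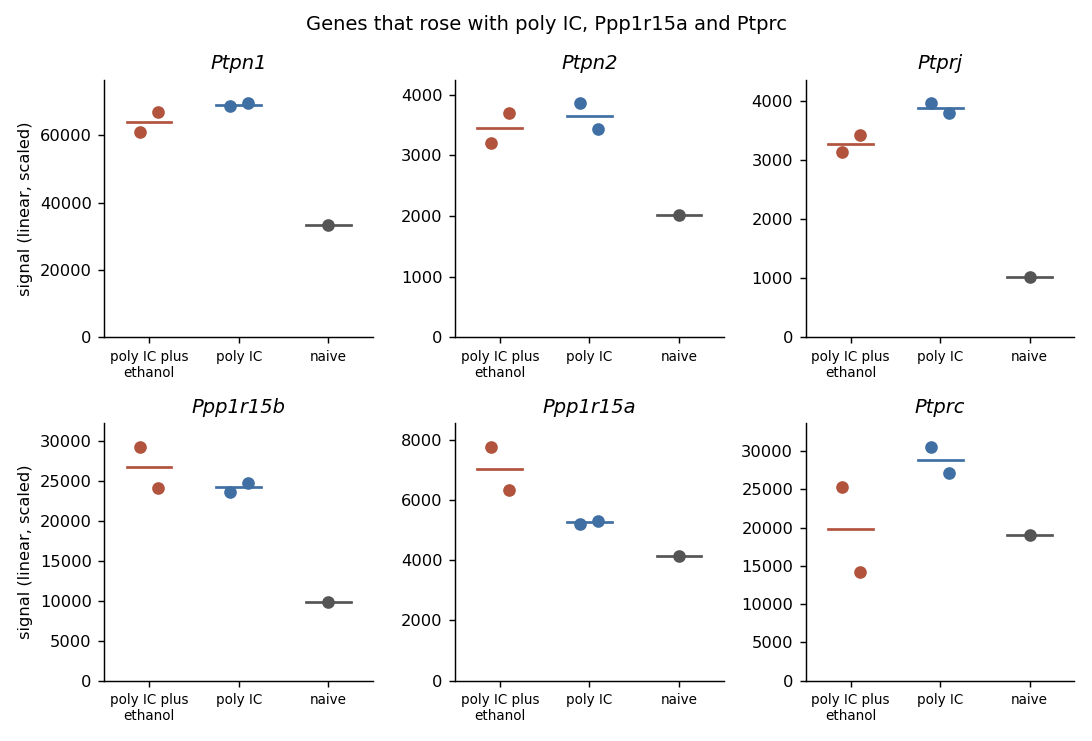
Linear signal (scaled intensity, vertical axes from 0) of the 4 genes called higher with poly IC than naive (Ptpn1, Ptpn2, Ptprj and Ppp1r15b) and of Ppp1r15a and Ptprc, with 1 point per array and a line at the group mean. The ethanol and poly IC pools of Ptpn1 lie between 60957 and 69567, all above the naive 33380, whereas the ethanol pools of Ptprc spread between 14238 and 25323.

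Among the genes that fell with poly IC were all 6 that stood higher with ethanol. Ptp4a3 fell by 2.04 (SE 0.22, adjusted p = 0.000101), the widest fall among the phosphatase genes tested. Ppm1m fell by 1.79 (SE 0.26), Ptpro by 1.70 (SE 0.23), Ppp1r21 by 1.59 (SE 0.17), Ptpn22 by 1.26 (SE 0.15) and Ppp3r1 by 0.96 (SE 0.18). The same poly IC arrays enter both comparisons, so a low value on them counts toward a fall against naive and toward a higher value with ethanol. The matching overlap over all genes was not counted, so this one is not read as particular to the phosphatase genes.

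Ptpn6 encodes SHP-1, which inhibitory receptors recruit in macrophages and B cells. It had 4139 and 3323 with poly IC plus ethanol, 3507 and 3101 with poly IC and 12041 on the naive array. All treated pools lay far below the naive signal, and pools of both treatments overlapped. The difference between poly IC and naive was -1.79 (SE 0.21, adjusted p = 0.000148), and the difference between ethanol and poly IC was 0.16 (95% interval -0.22 to 0.54). Ptprcap, the lymphocyte partner of CD45, had 8016 and 7570 with poly IC plus ethanol, 5512 and 5548 with poly IC and 15781 on the naive array. It fell by 1.47 (SE 0.17) with poly IC, and its difference of 0.48 with ethanol missed the threshold (adjusted p = 0.0591). Ptp4a2, the other PRL phosphatase gene, had 9962 and 9516 with poly IC plus ethanol, 7345 and 6557 with poly IC and 16412 on the naive array. It fell by 1.21 (SE 0.17) with poly IC and also missed the threshold with ethanol (0.47, adjusted p = 0.0591). In Ptprcap and Ptp4a2 the ethanol pools lay above the poly IC pools without overlap. That held in 23 of the 50 phosphatase genes tested, with 7 separated the other way, so it is not read as a difference.

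The remaining falls were smaller. Ppp2r5c, which encodes a substrate-targeting subunit of PP2A, had 8083 and 7706 with poly IC plus ethanol, 6189 and 5826 with poly IC and 10258 on the naive array (-0.75 for poly IC against naive, SE 0.17, adjusted p = 0.00868). Ptpn18 had 8382 and 10309 with poly IC plus ethanol, 6117 and 8149 with poly IC and 12872 on the naive array (-0.84, SE 0.22, adjusted p = 0.0136). Ptpn9, a phosphatase of secretory vesicles, had 2652 and 2146 with poly IC plus ethanol, 1748 and 1847 with poly IC and 3192 on the naive array (-0.75, SE 0.23, adjusted p = 0.0287). The poly IC mean was 58.6% of the naive signal for Ppp2r5c, 55.4% for Ptpn18 and 56.3% for Ptpn9. Ptpra, a receptor phosphatase that activates Src, had 1700 and 1937 with poly IC plus ethanol, 1488 and 1044 with poly IC and 2381 on the naive array (-0.81, SE 0.26, adjusted p = 0.0399). Ppp3ca fell by 0.53 (SE 0.17, adjusted p = 0.0412). With 1 poly IC array left out, calls of Ppp2r5c, Ptpn18, Ptpn9, Ptpra and Ppp3ca were lost. Without replicate 1 adjusted p was 0.0878 for Ptpn18, 0.115 for Ptpn9 and 0.109 for Ppp3ca, and without replicate 2 it was 0.0636 for Ppp2r5c, 0.0919 for Ptpn9, 0.204 for Ptpra and 0.196 for Ppp3ca. With median-centred arrays Ptpn18, Ptpn9, Ptpra and Ppp3ca lost their calls, with quantile normalization Ptpn9, Ptpra and Ppp3ca, with no filter Ptpn9 and Ptpra, and without the trend Ptpn18, Ptpra and Ppp3ca. Of 12 tested B cell markers 11 fell with poly IC (median -1.43), and their part in the falls of lymphocyte-expressed genes such as Ptpn6, Ptpn22 and Ptprcap was not tested.

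**Figure D5:**
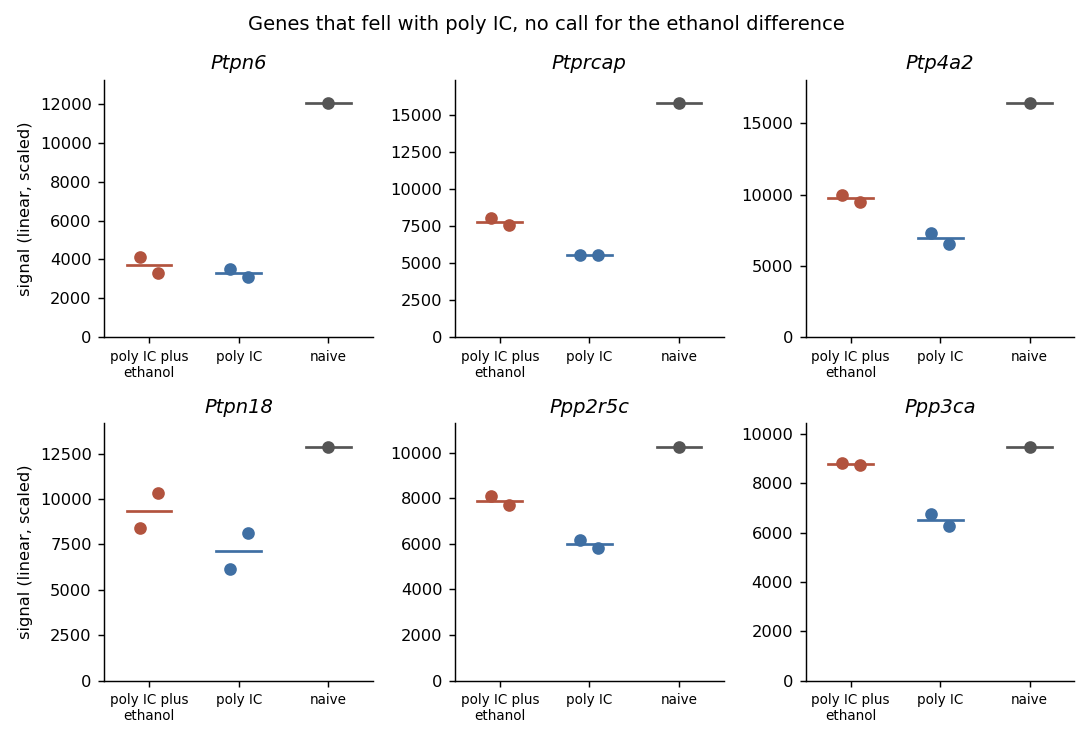
Linear signal (scaled intensity, vertical axes from 0) of 6 genes that fell with poly IC and were not called between ethanol and poly IC, with 1 point per array and a line at the group mean. Ptpn6 stays at 4139 and 3323 with poly IC plus ethanol, near the 3507 and 3101 with poly IC and below the naive 12041. In the panels of Ptprcap, Ptp4a2, Ptpn18, Ppp2r5c and Ppp3ca both ethanol points lie above both poly IC points.

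Poly IC plus ethanol against naive called 9 of the 50 genes, 5 higher and 4 lower, beside 17.2% of all genes (8.69% higher and 8.52% lower). With median-centred arrays the calls over all genes were 502 higher and 282 lower, where the fit reported here had 473 and 464, and the phosphatase calls were again 5 higher and 4 lower. The 18% of phosphatase genes is near the background. Higher were Ppp1r15b (1.42, SE 0.16), Ptprj (1.47, SE 0.21), Ptpn1 (0.93, SE 0.12), Ppp1r15a (0.72, SE 0.20, adjusted p = 0.0329) and Ptpn2 (0.71, SE 0.21, adjusted p = 0.0449). Lower were Ptpn6 (-1.63, SE 0.21), Ptp4a3 (-1.29, SE 0.22), Ptprcap (-1.0, SE 0.17) and Ptp4a2 (-0.74, SE 0.17). Thus 8 of the 9 were called in the same direction with poly IC alone, and the exception was Ppp1r15a, for which adjusted p was 0.0733 and 0.0726 when poly IC replicate 1 or replicate 2 was left out. The Ptpn2 call was lost in both of those settings and without ethanol replicate 2 (adjusted p = 0.0923, 0.0884 and 0.059). Ptpn2 and Ppp1r15a also lost their calls with no filter and with eBayes without the trend, and Ptp4a2 without the trend (adjusted p = 0.0678). Ppp1r21, Ppp3r1, Ptpn22, Ptpro and Ppm1m were not called against naive, with differences of -0.18, -0.22, -0.40, -0.52 and -0.82. The last of these had an adjusted p of 0.0566. This comparison shares the naive array with poly IC against naive and the ethanol arrays with ethanol against poly IC. A high or low naive signal therefore moves both comparisons against naive the same way. The matching agreement over all genes was not counted, so that of the 8 is not read as particular to phosphatase genes.

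Genes outside the symbol rule that act with these phosphatases were described from lists of pathway partners. Of 8 tested Src family kinases and their regulators, 3 were higher with ethanol than with poly IC and none was lower (median 0.30), beside 6.03% higher and 4.98% lower over all genes. They were Blk, a B cell Src kinase that is also on the B cell marker list (1.33, SE 0.14), Pag1, the adaptor that recruits Csk (1.17, SE 0.17), and the kinase gene Syk (0.74, SE 0.12). Against naive, 5 of the 8 fell with poly IC, beside 20.8% of all genes, and Fgr rose (0.84, SE 0.18). Csk, the kinase that sets the inhibitory phosphate removed by CD45 and CD148, had 3061 and 3267 with poly IC plus ethanol, against 2955 and 2788 with poly IC and 6943 on the naive array. It fell by 1.20 with poly IC and differed little between the treatments.

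Of 10 tested receptors and adaptors that dock SH2-domain phosphatases, 2 rose and 5 fell with poly IC (median -0.57), beside 12.1% higher and 20.8% lower over all genes. The inhibitory Fc receptor gene Fcgr2b rose by 1.15 (SE 0.14), and Cd72, also on the B cell marker list, fell by 1.86 (SE 0.29). Between ethanol and poly IC none of the 10 was called (median 0.19). Of 10 tested PP2A regulators outside the rule, 3 fell with poly IC, or 30%, which is not far from the background of 20.8%. They were Anp32a (-1.41, SE 0.21), Igbp1 (-1.17, SE 0.22) and Tiprl (-0.75, SE 0.20). Anp32a, which encodes a PP2A inhibitor, was higher with ethanol than with poly IC (0.64, SE 0.17, adjusted p = 0.0381). Of 4 tested PP1 partners, only Mphosph10 rose with poly IC (1.34, SE 0.37), beside 12.1% higher over all genes. None of the 4 was called between ethanol and poly IC.

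Among 6 tested calcineurin-NFAT partners, Rcan1 had 6756 and 5539 with poly IC plus ethanol, 4959 and 3661 with poly IC and 2108 on the naive array. It rose by 0.94 (SE 0.23) with poly IC. Nfatc2 rose by 0.91 (SE 0.31) and Nfatc3 fell by 0.77 (SE 0.21) in the same comparison. Thus 2 of these 6 were called higher and 1 lower, beside 12.1% higher and 20.8% lower over all genes. Of 11 tested protein and lipid phosphatases with other names, 5 fell with poly IC and none rose (median -0.65), beside 20.8% lower over all genes. Between ethanol and poly IC 3 were higher, the lipid phosphatase gene Inpp5d (SHIP1, 1.17, SE 0.21), Ctdsp2 (1.03, SE 0.17) and the myotubularin gene Mtm1 (0.86, SE 0.17), and none was lower, beside 6.03% higher over all genes. Inpp5d had 5292 and 6333 with poly IC plus ethanol, against 3018 and 1955 with poly IC and 7319 on the naive array.

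The other 20 phosphatase genes did not pass the filter, and 8 of them lay below the brightest unspiked control on all 5 arrays. That control was between 299.6 and 443.8 by array. The 8 were Ppp1r12c, Ppp1r3c, Ptpn11, Ptpn20, Ptpn21, Ptprb, Ptprg and Ptprz1. Ptpn11, which encodes the widely expressed SHP-2, is among them. It had 40.9 and 360 with poly IC plus ethanol, 123.5 and 48.7 with poly IC and 287.2 on the naive array. Its level on these arrays is therefore uncertain. The other 12 were Ppp1r17, Ppp1r1a, Ppp2r2b, Ppp2r5d, Ptpn5, Ptpn12, Ptpn13, Ptprd, Ptprf, Ptprk, Ptprn2 and Ptprv. They include Ppp2r5d, a PP2A targeting subunit, with 127.4 and 119.2 with poly IC plus ethanol, 168.8 and 104.8 with poly IC and 747.9 on the naive array. Only the naive signal of that gene was above the controls, and it was not tested.

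Of the tested genes not yet described, none was called in any comparison. In the PP1 class they were Ppp1r2, Ppp1r7, Ppp1r14b and Ppp1r18, in the PP2A class Ppp2r1a, Ppp2r1b, Ppp2r2a and Ppp2r5a, and in the PPM class Ppm1a, Ppm1b and Ppm1g. Ppp6r3, Ptpn14, Ptpn23, Ptpre, Ptprm, Ptprn, Ptprr, Ptprs and Ptpru complete the set. Ppp2r1a, the main scaffold of PP2A, had 11400 and 9357 with poly IC plus ethanol, 9337 and 9665 with poly IC and 11177 on the naive array. Pools of both treatments overlapped in a narrow range. Of these genes Ppp2r5a came closest to a call against naive, at 11773 and 9303 with poly IC plus ethanol, 10993 and 12189 with poly IC and 15846 on the naive array. Its adjusted p was 0.0581 for ethanol and 0.0967 for poly IC against naive. In all, 17 of the 70 genes had more than 1 probe set. Of the 23 further probe sets 15 lay below the controls on all arrays and 7 passed the filter, among them those of Ptprc and Ptprj given above. For Ppp6c the further probe set had 2365 and 2554 with poly IC plus ethanol, 2949 and 3355 with poly IC and 3407 naive, a difference of -0.33 for ethanol against poly IC where the represented probe set gave 0.28.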

How the data were processed

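RNA of 5 arrays was measured on the Affymetrix MG-U74Av2 (12488 probe sets). Per the labels, the authors derived linear intensity signals with Affymetrix Microarray Suite 5.0 and scaled each array to a target of 2500. Gene names came from the platform annotation: 10833 probe sets had 1 symbol, 396 several and 1193 none listed. Groups followed the sample titles.

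Signals were transformed as log2(signal + 250), which damps differences of dim probe sets. Each gene was represented by its probe set with the highest mean, and genes whose mean lay under the 40th percentile of named probe sets (551.78) were left out, leaving 5443. Group means were fitted with limma 3.58.1 (lmFit, eBayes with trend; R 4.3.3) on 2 residual degrees of freedom, and p-values were Benjamini-Hochberg adjusted over all genes in each of 3 comparisons. The single naive array adds no degree of freedom. The script was tested on simulated data. Alternatives changed the offset, filter, trend, scaling, probe set rule, replicate block and arrays used. Genes, lists and tests were chosen with earlier results of these data known. The genes named are those called in a comparison, the catalytic subunits, and the other members by class. The number of arrays limits the precision.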

Additional observations from a re-analysis of the deposited data

Results flagged for a closer look

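The probe set that names both Ptp4a1 and Gm13363 lies outside the symbol rule and was not among the genes tested. It gave signals of 16498 and 15954 with poly IC plus ethanol, 19212 and 19849 with poly IC and 11152 on the naive array. The lowest treated signal was 1.43 times the naive one, whereas Ptp4a2 and Ptp4a3, the other PRL phosphatase genes, were lower in every treated pool than on the naive array. Which of the 2 named genes the probe set reports cannot be told apart, and the difference was not tested.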

How the results depend on the processing

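Each comparison was recomputed under 14 alternatives, of which the filter percentile over all non-control probe sets was chosen after seeing the data. With 1 array left out, the lone array of a group was assumed to vary like the others. Poly IC plus ethanol against poly IC called 6 genes, all higher. That count was 2 with eBayes without the trend and between 3 and 9 with 1 array left out, for calls in either direction and for higher calls. Without poly IC replicate 1 and without poly IC replicate 2 it was 3 in each case. Lower calls ran between 0 and 1 with 1 array left out, the 1 being Ptprc without ethanol replicate 1. Over all genes the main count of 599 was 324 with no filter, 133 without the trend, and between 143 and 1066 with 1 array left out (216 without poly IC replicate 1, 143 without replicate 2, 1066 without ethanol replicate 1). Poly IC against naive called 1788 of all genes, and between 1181 (without poly IC replicate 2) and 2341 with 1 array left out. Against naive, ethanol called 5 phosphatase genes higher, but 3 with no filter, 3 without the trend and between 3 and 6 with 1 array left out (3 without either poly IC array), and 937 of all genes, but between 723 and 1501 (without ethanol replicate 1). Replicate numbers only name the pools (the deviations of same-numbered pools correlated at 0.0408 over 5443 genes). With them as a replicate block, ethanol against poly IC called 9 phosphatase genes, 8 higher and 1 lower (Ptprc), and 850 of all genes. Differences that changed sign were all uncalled. With 1 array left out, ethanol against poly IC ran between -0.10 and 0.056 for Ppp1cb, -0.15 and 0.18 for Ppp1cc, -0.0013 and 0.27 for Ppp1r15b, -0.28 and 0.13 for Ppp2ca, -0.38 and 0.15 for Ppp2cb, and -0.17 and 0.019 for Ptpn2. Ethanol against naive then ran between -0.017 and 0.14 for Ppp1cb, -0.17 and 0.019 for Ppp4c, and -0.41 and 0.41 for Ptprc. With median-centred arrays, Ppp1cc was at -0.065 (ethanol against poly IC), Ppp6c at 0.062 (poly IC against naive), and Ppp3ca at 0.0013 and Ppp4c at 0.031 (ethanol against naive). With quantile normalization, Ppp1cc was at -0.048 and Ptpn1 at 0.018 (ethanol against poly IC), Ppp6c at 0.054 (poly IC against naive) and Ptprc at -0.099 (ethanol against naive). As the mean of its probe sets, Ppp6c was at -0.022 against poly IC and -0.14 against naive. The cause of these shifts was not tested. The brightest unspiked control is a coarse line and not a detection call, so the level of a probe set below it is uncertain.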
